A study of Mus musculus with 4 samples.

Results

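Chemokine ligands are small secreted proteins that guide immune cells to one another. The genes described here are 10 such ligands of the mouse lymph node: Ccl2, Ccl3, Ccl4, Ccl8, Ccl17, Ccl22, Cxcl9, Cxcl10, Cxcl16 and Xcl1. They were chosen by name out of the 32285 genes in the count matrices, and all 10 were counted. Draining lymph nodes of wildtype C57BL/6 mice were profiled by droplet single-cell RNA sequencing, which counts RNA molecules as unique molecular identifiers (UMIs). There were 2 Control libraries and 2 EV libraries from mice injected under the skin with 100 µg in total of extracellular vesicles (EVs), membrane particles shed by induced pluripotent stem cells (iPSCs). All groups share the wildtype genotype, and the age of the mice is not given in the sources used here. The sample labels give a treatment duration of 24 h and call the controls untreated, whereas the design text gives 5 days before harvest and the methods give a saline injection for controls, so time and vehicle are uncertain. The methods name 2 biological replicates per group, but the labels do not tie libraries to separate animals. The p-values therefore measure only the spread between these libraries.

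Chemokines act through receptors that cross the membrane of the responding cell, and each receptor answers to a small set of ligands. Ccr4 answers to Ccl17 and Ccl22, Cxcr3 to Cxcl9 and Cxcl10, Cxcr6 to Cxcl16, Xcr1 to Xcl1, Ccr2 to Ccl2, and mouse Ccr8 to Ccl8. In a lymph node, macrophages line the sinuses, dendritic cells carry antigen in from tissue, and both meet lymphocytes there.

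Cells were assigned by raw UMIs to 5 gates. Macrophages had at least 2 UMIs of the complement genes C1qa and C1qb together and none of the T cell gene Cd3e. Dendritic cells had Fscn1, the actin-bundling gene of mature dendritic cells, and no Cd3e, and B cells had Cd79a and no Cd3e. CD4 T cells had Cd3e and Cd4 without Cd8a or Cd79a, and CD8 T cells had Cd3e and Cd8a without Cd4 or Cd79a. Of 34323 barcodes, 32725 passed the quality limits, with 49212143 to 63038972 UMIs per library. In the order Control 1, Control 2, EV 1 and EV 2, used throughout, the macrophage gate held 42, 80, 91 and 67 cells and the dendritic cell gate 72, 123, 94 and 87. The B cell gate held 2503 to 4866 cells per library, the CD4 gate 923 to 1624 and the CD8 gate 1003 to 1861, while 6434 cells were in no gate and 149 in 2 gates. Between 12 and 26 barcodes were shared by any pair of libraries.

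The macrophage gate was shallow, with a median of 1100 to 1456 UMIs per cell against 4020 to 6702 in dendritic cells and 7397 to 9871 in CD8 T cells. Its macrophage markers were present, 9 of 10 in every library, with Vsig4 at 0 in all 4. It also held B cell markers, all 8 of 8, with summed levels of 3741, 3548, 6058 and 7059 counts per 1000000 UMIs (CPM). Markers of migratory dendritic cells summed to 3013, 1548, 1863 and 2195 CPM. Those of monocytes summed to 28.6, 831, 917 and 445 CPM, and those of plasmacytoid dendritic cells to 357, 1701, 475 and 885 CPM. Over the same libraries the summed macrophage markers were 19689, 17261, 12736 and 9652 CPM. In the dendritic cell gate all 10 markers of migratory dendritic cells were detected in every library, at a summed 7146 to 7946 CPM, beside 8 of 8 B cell markers at 1813 to 2294 CPM. The part of these other-cell markers in the results below was not tested.

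The ligands fell into sets by source. Ccl8, Cxcl9, Cxcl10 and Ccl2 were highest in macrophages, and Ccl22, Ccl17 and Cxcl16 in dendritic cells. Xcl1, Ccl4 and Ccl3 were found in CD8 T cells and in cells with the natural killer (NK) cell receptor gene Ncr1, but other ungated cells held 44.4% of Ccl3, 39.1% of Ccl4 and 30.7% of Xcl1 UMIs. A ligand was called to have a source gate where its level, relative to all UMIs of the gate, exceeded that in each of the other 4 gates. The test was edgeR's quasi-likelihood test on summed UMIs with the library as a block, at an adjusted p under 0.05. By that rule 6 ligands had macrophages as source, against 4.85% of 13849 genes tested, and 3 had dendritic cells, against 8.17%. For Ccl4 and Xcl1 the macrophage call rested on 1 barcode described below, and Ccl3 had no called source.

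**Figure D1:**
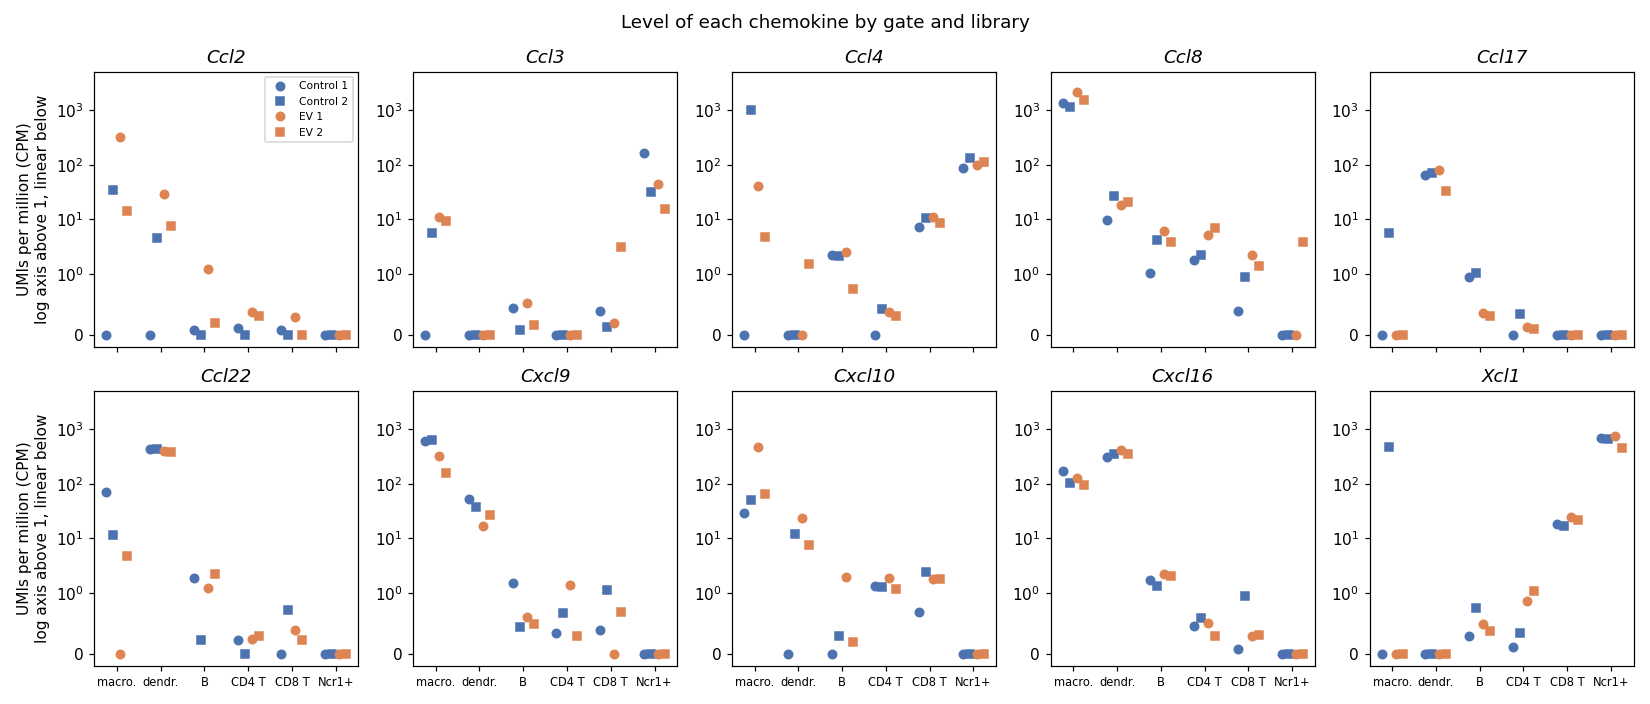
Level of each ligand (CPM, logarithmic above 1 and linear below) in the 5 gates and in Ncr1-positive cells, with 1 point per library (blue Control, orange EV). Ccl8 lies between 1130 and 2097 CPM in macrophages of all 4 libraries, and the highest macrophage points of Ccl4, at 1000 CPM, and Xcl1 are both Control 2.

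**Figure D2:**
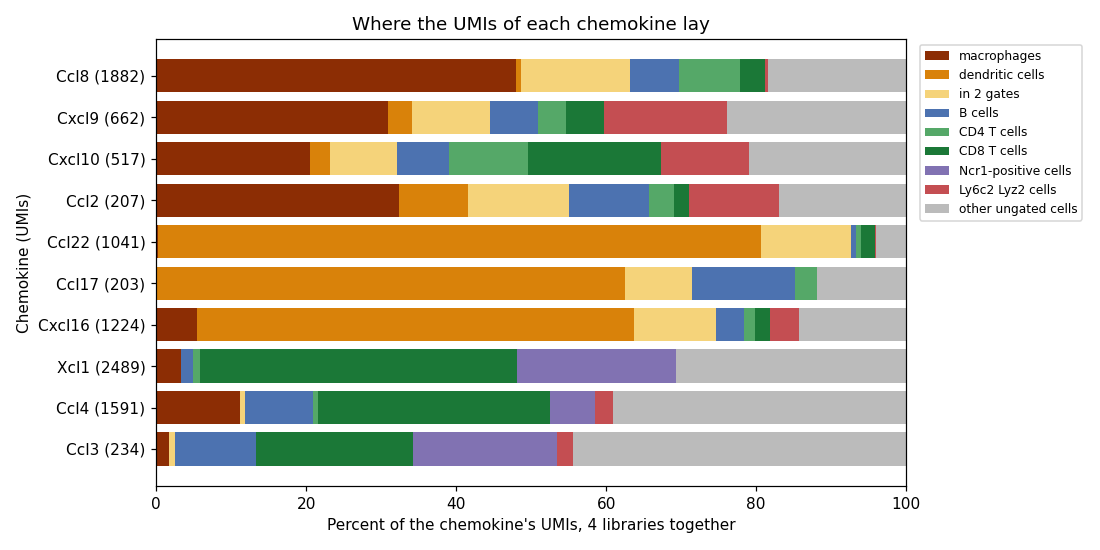
Percent of each ligand's UMIs by cell class, 4 libraries together, with every UMI counted once and the number of UMIs beside each name. Dendritic cells alone held 80.4% of Ccl22 UMIs, and CD8 T cells 42.4% of Xcl1 UMIs.

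Ccl8 (ENSMUSG00000009185, chr11:82115185-82116799 on the plus strand of GRCm38, 3 exons), a ligand that draws monocytes and some T cells, had the most macrophage-gate UMIs of the 10 ligands, counted at the 3′ end and not scaled by gene length. Its UMIs in the macrophage gate were 93, 200, 565 and 319, or 1328, 1130, 2097 and 1509 CPM. The gene was seen in 50.0%, 52.5%, 61.5% and 55.2% of macrophages, and macrophages held 62.5% of its 1882 UMIs. The level in macrophages exceeded that in dendritic cells, the next gate, by 6.18 on the log2 scale (SE 0.24, edgeR adjusted p = 1.6e-15). Below these came dendritic cells at 9.56 to 27.1 CPM, then CD4 T cells at 1.80 to 7.06 CPM and B cells at 1.02 to 6.09 CPM, and these last neighbours did not differ beyond their spread (0.15, SE 0.25, adjusted p = 0.616). This order counts barcodes in 2 gates in both, and such barcodes held 14.5% of Ccl8 UMIs. With them set apart, the dendritic cell share fell from 2.50% to 0.584% and the B cell share from 19.1% to 6.54%. The macrophage share fell from 62.5% to 48.0%. In B cells and CD4 T cells under 1% of cells had a Ccl8 UMI in each library, 0.265% to 0.930% of B cells and 0.578% to 0.924% of CD4 T cells, where cells were deeper than macrophages.

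Cxcl9 (ENSMUSG00000029417, chr5:92321347-92328079, minus strand, 4 exons), an interferon-gamma target that draws Cxcr3-bearing T cells, also had macrophages as its called source. Its macrophage UMIs were 42, 111, 86 and 33, or 600, 627, 319 and 156 CPM, in 26.2%, 27.5%, 27.5% and 16.4% of cells. Both EV levels lay below both Control levels, while the shares of positive cells overlapped. Macrophages exceeded dendritic cells, where the level was 16.9 to 52.6 CPM, by 3.56 (log2, SE 0.36, adjusted p = 3.89e-08).

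Cxcl9 was also carried by small groups outside the gates. Of 24 ungated cells with Xcr1, the receptor gene of cross-presenting dendritic cells, 13 had a Cxcl9 UMI, and the level was 327, 234, 1043 and 726 CPM from only 5, 8, 2 and 9 cells. Ungated cells with both monocyte genes Ly6c2 and Lyz2 numbered 3, 15, 35 and 21 and held 16.5% of all Cxcl9 UMIs, most of them in EV 1 with 94 of 109. The 4 neutrophil markers summed to 0 and 49.3 CPM in these cells of the Control libraries and to 9730 and 4320 CPM in the EV libraries. T cell markers in the same group summed to 852, 493, 11.4 and 112 CPM. Markers of plasmacytoid dendritic cells summed to 604, 3907, 483 and 1231 CPM. Whether RNA of neutrophils or of these other cells has a part in the group's chemokine levels was not tested.

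Cxcl10 (ENSMUSG00000034855, chr5:92346638-92348889, minus strand, 4 exons), a neighbour of Cxcl9 on the chromosome and a ligand of the same receptor, followed another pattern over the libraries. Its macrophage UMIs were 2, 9, 126 and 14, or 28.6, 50.9, 468 and 66.2 CPM, in 4.76%, 5.00%, 36.3% and 14.9% of cells. EV 1 stood far above the other 3 libraries, and EV 2 lay just above Control 2. Macrophages were the called source, above dendritic cells by 3.62 (log2, SE 0.57, adjusted p = 2.75e-05). Outside macrophages it was spread more widely than Cxcl9, with 17.8% of its 517 UMIs in CD8 T cells and 10.4% in CD4 T cells, at 0.687 to 2.45 CPM and 1.19 to 1.87 CPM.

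Ccl2 (ENSMUSG00000035385, chr11:82035571-82037453, plus strand, 3 exons), the main ligand that draws Ccr2-bearing monocytes, was rare. Its macrophage UMIs were 0, 6, 86 and 3, or 0, 33.9, 319 and 14.2 CPM, and the 0 of 42 cells in Control 1, taken as under 3 counts, allows a share of cells with a UMI of up to 7.14%, at a median depth of 1100 UMIs. The same EV 1 library was again alone at the top, with 31.9% of its macrophages positive (95% exact binomial interval 22.5% to 42.5%) against 4.48% in EV 2 (0.933% to 12.5%). Such intervals cover counting error only. The call of macrophages over dendritic cells (2.91, log2, SE 0.56, adjusted p = 0.000321) ended without EV 1, at 2.01 and adjusted p = 0.175.

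Within the macrophage gate the ligands overlapped unevenly from cell to cell. Of 156 macrophages with Ccl8, 26.9% also had Cxcl10 and 19.2% had Ccl2, against 5.65% and 4.84% of the 124 without Ccl8. Most of this came from EV 1, where Cxcl10 was seen in 51.8% against 11.4% and Ccl2 in 46.4% against 8.57%. In Control 2 both were at 4.76% against 5.26%, and in EV 2 Cxcl10 was at 24.3% against 3.33% and Ccl2 at 5.41% against 3.33%. In Control 1 Cxcl10 was at 9.52% against 0% and Ccl2 was not seen. The median depth of macrophages with and without Ccl8 was 1552 and 1242 UMIs in EV 1 but 1139 and 1879.5 UMIs in EV 2. Pooled over libraries, Cxcl16 was seen in 12.8% of macrophages with Ccl8 and 23.4% of those without. Cells of 1 library share its depth and free RNA, so these shares are a description.

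**Figure D3:**
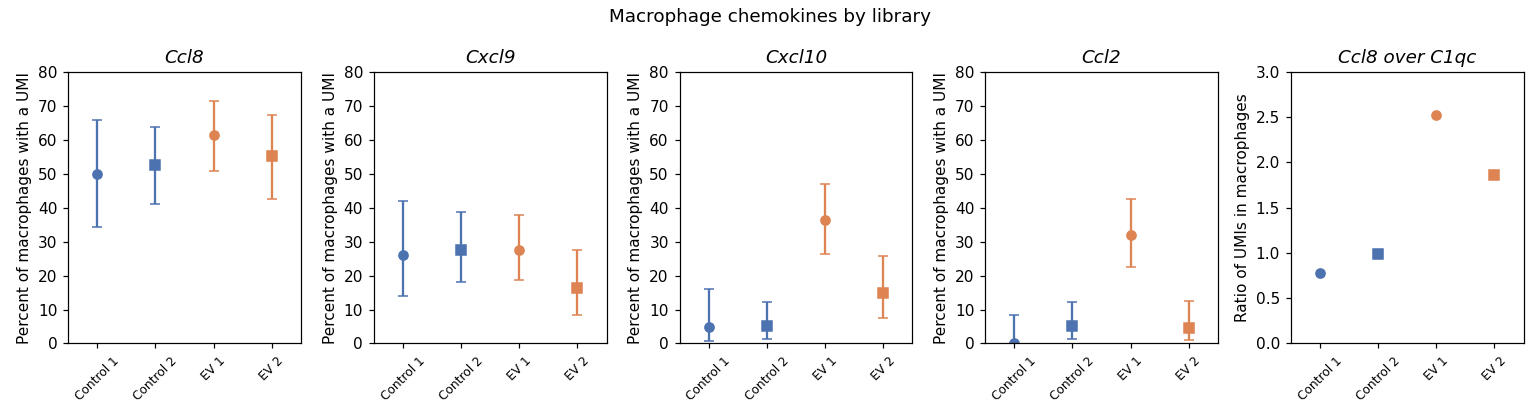
Percent of macrophages with a UMI of Ccl8, Cxcl9, Cxcl10 and Ccl2 in each library, with 95% exact binomial intervals, and the ratio of Ccl8 to C1qc UMIs in the macrophage gate. EV 1 is alone at 36.3% for Cxcl10 and 31.9% for Ccl2, and the ratio is 0.775 and 0.990 in Control against 2.52 and 1.87 in EV.

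The upstream sequences of 4 ligands are shown because these genes have different called sources or library patterns: Cxcl9 and Cxcl10, which share a receptor and a chromosomal region but differed in pattern over the libraries, and Ccl8 and Ccl22, called to macrophages and dendritic cells. Each is the 250 bases before the start of the RefSeq transcript (GRCm38.p6), 5′ to 3′ in the direction of the gene, and 7 of the 10 ligands had an entry. Capitals mark matches on either strand to the core of the interferon-stimulated response element (GAAA, any 2 bases, GAAA) and to the NF-kappaB site spelled GGGA, any 1 or 2 bases, TTCC. The first is at chr5:92328080-92328329, the next at chr5:92348890-92349139, then chr11:82114935-82115184 and chr8:94745434-94745683.
Cxcl9: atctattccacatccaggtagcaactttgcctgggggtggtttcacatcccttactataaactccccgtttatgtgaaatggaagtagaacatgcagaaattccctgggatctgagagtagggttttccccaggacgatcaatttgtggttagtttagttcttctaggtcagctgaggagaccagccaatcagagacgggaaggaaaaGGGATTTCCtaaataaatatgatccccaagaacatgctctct
Cxcl10: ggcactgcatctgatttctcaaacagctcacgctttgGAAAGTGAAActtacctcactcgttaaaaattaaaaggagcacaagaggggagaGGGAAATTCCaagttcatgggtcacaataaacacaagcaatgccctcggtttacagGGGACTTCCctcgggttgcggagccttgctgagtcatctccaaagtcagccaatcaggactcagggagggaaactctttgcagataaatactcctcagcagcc
Ccl8: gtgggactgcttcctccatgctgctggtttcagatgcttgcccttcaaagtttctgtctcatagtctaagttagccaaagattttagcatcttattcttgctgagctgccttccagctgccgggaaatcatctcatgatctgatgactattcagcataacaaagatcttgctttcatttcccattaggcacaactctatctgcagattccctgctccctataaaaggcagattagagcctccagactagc
Ccl22: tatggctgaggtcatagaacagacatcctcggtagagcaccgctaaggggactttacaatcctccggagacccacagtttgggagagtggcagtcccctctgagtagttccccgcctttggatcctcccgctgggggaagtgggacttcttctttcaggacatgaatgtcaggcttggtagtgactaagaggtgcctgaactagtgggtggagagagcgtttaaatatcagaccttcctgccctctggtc

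The interferon element core was found in Cxcl10 only among the 7 ligands with a sequence, 213 to 204 bases before the start, and in 2.98% of all 32851 upstream sequences. The NF-kappaB spelling with 1 free base was found in Cxcl9, 42 to 34 bases before the start, and in Cxcl10, 103 to 95 bases before it, against 1.43% of all. That with 2 free bases was found in Cxcl10, 159 to 150 bases before the start, against 1.21% of all. In the Ccl8 and Ccl22 stretches none of these letters was found. These are matches of letters and not measured binding sites.

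Ccl22 (ENSMUSG00000031779, chr8:94745590-94751699, plus strand, 4 exons), a Ccr4 ligand that draws regulatory and other memory T cells, had the largest share of its UMIs in 1 gate among the 10 ligands. Its dendritic cell UMIs were 183, 285, 237 and 256, or 437, 429, 401 and 381 CPM, and the gate held 92.3% of its 1041 UMIs. It was seen in 33.3%, 34.1%, 29.8% and 37.9% of dendritic cells. The level exceeded that in macrophages by 5.25 (log2, SE 0.50, adjusted p = 1.74e-08). A single Control 2 cell with 75 Fscn1 UMIs held 147 of the Ccl22 UMIs. In the T cell gates the level was 0 to 0.716 CPM.

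Ccl17 (ENSMUSG00000031780, chr8:94810453-94812036, plus strand, 3 exons), the second Ccr4 ligand and a neighbour of Ccl22, came from the same gate. Its dendritic cell UMIs were 27, 47, 48 and 22, or 64.5, 70.7, 81.1 and 32.8 CPM, in 13.9%, 13.8%, 14.9% and 13.8% of cells. EV 2 was the lowest and EV 1 the highest, so the groups overlapped. It exceeded macrophages, where 1 UMI was seen, by 5.495 (log2, SE 0.83, adjusted p = 2.9e-05). Of the 127 dendritic cells with Ccl22, 34.6% also had Ccl17, against 3.61% of those without. The cells with Ccl22 were deeper, with a median of 6694 against 4023 UMIs.

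Cxcl16 (ENSMUSG00000018920, chr11:70453983-70459984, minus strand, 6 exons), a membrane-bound ligand for Cxcr6-bearing T cells, had dendritic cells as its called source. Dendritic cells held 129, 236, 245 and 234 UMIs, or 308, 355, 414 and 348 CPM, in 50.0%, 51.2%, 51.1% and 52.9% of cells. Macrophages followed at 171, 102, 126 and 94.6 CPM, below dendritic cells by 1.72 on the log2 scale (SE 0.20, adjusted p = 3.52e-07) and above B cells by 5.74 (SE 0.32, adjusted p = 2.7e-13). CD4 and CD8 T cells, last in order, did not differ beyond their spread (0.03, SE 0.52, adjusted p = 0.988, CD8 the higher in the fit). Outside the gates Cxcl16 was found in 27 of the 74 Ly6c2 Lyz2 cells and in 9 of the 24 Xcr1-positive cells, the latter at 98.2 to 182 CPM.

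Xcl1 (ENSMUSG00000026573, chr1:164931644-164935527, minus strand, 3 exons), the ligand by which NK and CD8 T cells draw Xcr1-bearing dendritic cells, was the most counted ligand at 2489 UMIs. Among ungated cells with Ncr1, which numbered 22, 43, 15 and 33, its level was 678, 659, 740 and 452 CPM and 77.3%, 69.8%, 80.0% and 63.6% of cells were positive. CD8 T cells held more of the UMIs at a far lower level, with 235, 280, 255 and 285 UMIs, or 17.9, 16.7, 24.5 and 22.0 CPM, in 4.88%, 4.89%, 7.68% and 6.72% of cells. CD8 T cells exceeded CD4 T cells by 5.21 (log2, SE 0.67, adjusted p = 2.85e-06).

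The macrophage call of Xcl1 came from 1 barcode. That Control 2 barcode held all 82 macrophage-gate Xcl1 UMIs and 176 of the 189 Ccl4 UMIs. It had 2 UMIs of C1qa, none of C1qb and none of C1qc, beside 11 of Ncr1, 47 of Gzma and 13 of Klrb1c, genes of NK cells. With the barcode of most UMIs of each ligand left out of each gate, Xcl1 was called to CD8 T cells and Ccl4 to no gate.

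Ccl4 (ENSMUSG00000018930, chr11:83662584-83664683, plus strand, 3 exons), a ligand made by activated lymphocytes, shared these cells. Its CD8 UMIs were 94, 175, 113 and 110, or 7.18, 10.4, 10.9 and 8.48 CPM, in 1.96%, 1.61%, 3.49% and 1.33% of cells, with both groups overlapping. In Ncr1-positive cells it stood at 86.4, 130, 97.2 and 113 CPM. CD8 T cells exceeded B cells, the next gate, by 2.45 (log2, SE 0.52, adjusted p = 0.000205). Among CD8 T cells, 15.2% of those with Xcl1 also had Ccl4, against 1.15% of those without, at median depths of 12782 and 8441 UMIs. Among Ncr1-positive cells it was not so, with Ccl4 in 31.25% of the 80 cells with Xcl1 and 36.4% of those without.

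Ccl3 (ENSMUSG00000000982, chr11:83647844-83649355, minus strand, 3 exons), which lies beside Ccl4, was scarce. In Ncr1-positive cells 25, 10, 6 and 4 UMIs were counted, in 18.2%, 13.95%, 26.7% and 12.1% of cells. In CD8 T cells there were 5, 2, 2 and 40 UMIs, and the 40 in EV 2 were all in 1 cell. None was counted in the dendritic or CD4 gates. The macrophage gate was first in order but did not differ from CD8 T cells (2.92, log2, SE 1.24, adjusted p = 0.0707).

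The share held by a few cells varied among ligands. The 10 cells with the most UMIs held 67.9% of Ccl3, 61.0% of Ccl4 and 53.4% of Ccl22 UMIs, against 30.2% of Xcl1, 24.3% of Ccl8 and 16.5% of Cxcl16 UMIs. For Ccl4 a single ungated Control 1 cell with 2 Cd3e UMIs held 398 of 1591 UMIs, and the same cell held 240 Xcl1 UMIs.

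**Figure D4:**
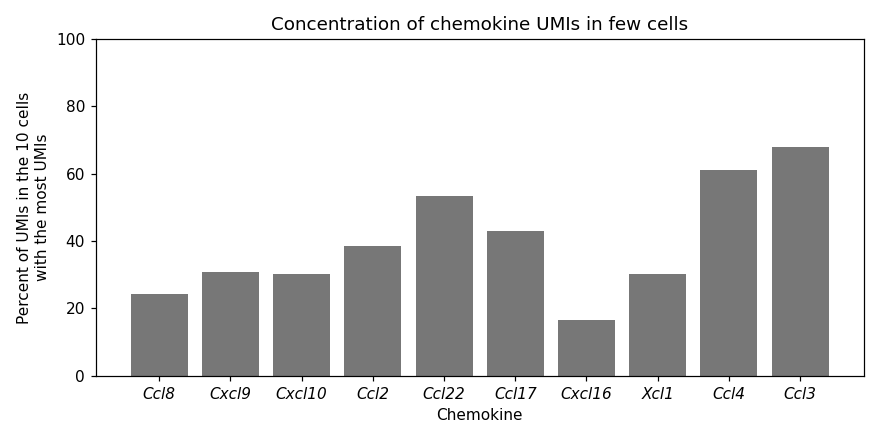
Percent of each ligand's UMIs, over all cells of 4 libraries, found in the 10 cells with the most UMIs of it. The bars run from 16.5% for Cxcl16 to 67.9% for Ccl3.

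The question of the design is whether the EV libraries differ from Control. Within the gates, 1 of the 10 ligands was called in 1 gate: Ccl8 was higher in CD4 T cells of EV libraries. In macrophages 0 of the 4 ligands tested was called, against 0% of 3497 genes. There 2 of the 4 ligands and 316 of the genes (9.04%) had an unadjusted p under 0.05, and DESeq2 called 6 genes, none of them a ligand. Ccl2 was too low to be tested there. Ccl2 was tested in 4 other settings: without filterByExpr, or without Control 1, Control 2 or EV 2. The log2 difference there was 2.22 to 7.99. It was not tested without EV 1, which held 86 of its 95 UMIs. EV 2 held 3 and Control 2 held 6, and the levels of the groups overlapped. These differences therefore cannot tell EV from the single EV 1 library. In dendritic cells 0 of 5 was called against 0.148% of 7421 genes, with 1 of the 5 and 7.65% of genes under 0.05 unadjusted. In B cells 0 of 6 was called against 2.55% of 13270, with 1 of the 6 and 18.9% of genes under 0.05 unadjusted. In CD8 T cells 0 of 4 was called against 2.2% of 12284, with 2 of the 4 and 18.2% of genes under 0.05 unadjusted. In CD4 T cells 1 of 2 was called against 1.09% of 11933 genes called either way and 0.788% called higher. DESeq2 called no ligand in any gate.

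In macrophages the EV and Control levels did not overlap for 3 of the 4 ligands tested, against 41.5% of all genes tested. For Ccl8 the Control mean was 1229 ± 140 CPM and the EV mean 1803 ± 416 CPM (SD, n = 2 each), a log2 difference of 0.44 (SE 0.23, edgeR adjusted p = 0.606). Against C1qc, a macrophage gene not used by the gate, Ccl8 stood at 0.775 and 0.990 UMIs per C1qc UMI in Control and at 2.52 and 1.87 in EV, while C1qc itself was at 1713, 1141, 831 and 809 CPM. Cxcl9 had a Control mean of 613 ± 19.4 CPM and an EV mean of 238 ± 115 CPM (−1.48, SE 0.36, adjusted p = 0.297). Per C1qc UMI it was 0.350, 0.550, 0.384 and 0.193, which overlapped. Cxcl10 had a Control mean of 39.7 ± 15.8 CPM and an EV mean of 267 ± 284 CPM (2.51, SE 0.84, adjusted p = 0.437). Cxcl16 differed by −0.31 (SE 0.40, adjusted p = 0.901). The shares of macrophages positive for Ccl8, Cxcl10, Cxcl16 or Ccl3 were higher in both EV libraries, and that for Ccl22 was lower. How many of all genes did so was not counted. In this gate Ccl3 had 6 UMIs and Ccl22 had 8, each in 4 of 280 cells. However, 2 libraries against 2 cannot reach a p below 0.333 in an exact two-sided permutation test, and each of these ligands had that value. The median depth of macrophages was 1100, 1113.5, 1456 and 1387 UMIs. Thinned to 1000 UMIs a cell, which left out 108 of 280 macrophages, the mean Ccl8 share was 48.3% in Control and 47.2% in EV. Among the cells kept at that depth, the mean Ccl8 share was no higher in EV. The log2 difference in Ccl8 level was 0.078 to 1.03 over 14 settings, thinning included. The part of depth was not tested. At 1000 UMIs a cell the mean Cxcl10 share was 4.17% in Control and 12.9% in EV, and that of Cxcl16 was 8.82% and 8.64%.

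In dendritic cells none of the differences passed the test. For Ccl22 the Control mean was 433 ± 5.97 CPM and the EV mean 391 ± 13.7 CPM (−0.11, SE 0.25, adjusted p = 0.969), and Ccl17 67.6 ± 4.39 and 56.9 ± 34.2 CPM (−0.23, SE 0.37, adjusted p = 0.961). Cxcl16 averaged 332 ± 33.1 and 381 ± 46.4 CPM (0.23, SE 0.26, adjusted p = 0.935). Cxcl9 was at 45.1 ± 10.6 and 21.8 ± 6.998 CPM (−0.97, SE 0.42, adjusted p = 0.573), although more cells were positive in EV, 8.51% and 6.90% against 2.78% and 3.25%. Those shares were 8 and 6 cells in EV and 2 and 4 in Control, with an exact permutation p of 0.333, the smallest possible. How many of all genes differed so was not counted. The gate held 11.3% of all Cxcl9 UMIs, but 3.17% with barcodes in 2 gates set apart. As 25 barcodes were in both the macrophage and dendritic cell gates, this is not a comparison independent of that in macrophages. A single Control 2 barcode, which was also in the macrophage gate, held 22 of the 25 UMIs of that library.

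In CD4 T cells Ccl8 rose by 1.62 on the log2 scale (SE 0.31, edgeR adjusted p = 0.0331), from 1.80 and 2.20 CPM to 5.24 and 7.06 CPM. The share of CD4 T cells with a Ccl8 UMI was 0.578%, 0.924%, 0.867% and 0.789%, so it overlapped. The rise lay in a few cells: 5 EV 2 cells with at least 5 UMIs held 62 of that library's 71, and 1 EV 1 cell held 29 of 42. The EV 2 cell with the most, 31 UMIs, also had 13 UMIs of C1qa and C1qb and 30 of Lyz2. Without such top barcodes the difference was 1.14 (adjusted p = 0.123), with DESeq2 1.64 (0.0562) and without Control 1 1.49 (0.0912). After thinning each cell to 1000 UMIs Ccl8 was not among the genes tested. Per C1qc UMI, Ccl8 in CD4 T cells was 0.842, 1.86, 8.40 and 2.84, from only 19, 14, 5 and 25 C1qc UMIs.

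In CD8 T cells the Control mean of Xcl1 was 17.3 ± 0.871 CPM and the EV mean 23.2 ± 1.80 CPM, with both EV libraries above both Control libraries (0.44, SE 0.12, adjusted p = 0.0746). Levels did not overlap for 2 of the 4 ligands tested there, against 48.6% of genes. The share of positive cells was 4.88% and 4.89% in Control and 7.68% and 6.72% in EV, while the median depth of CD8 T cells was 7397, 8565, 9871 and 9110 UMIs. At 1000 UMIs a cell the shares were 0.773%, 0.752%, 0.798% and 0.959%. Ccl4 differed by 0.13 (SE 0.20, adjusted p = 0.792), Ccl8 by 1.35 (SE 0.48, adjusted p = 0.167) and Cxcl10 by 0.15 (SE 0.48, adjusted p = 0.896). Among the 6 ligands tested in B cells the largest difference was that of Ccl17, at 0.949, 1.04, 0.353 and 0.301 CPM (−1.54, SE 0.45, adjusted p = 0.117). Ccl2 and Cxcl10 were not tested there, at 0.073, 0, 1.22 and 0.188 CPM and at 0, 0.298, 1.96 and 0.188 CPM.

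The EV effect was also compared between gates. Against macrophages it differed for Ccl4 in B cells, CD4 T cells and CD8 T cells and for Xcl1 in CD8 T cells, where 0.172%, 0.111% and 0.211% of genes were called in the same tests. The macrophage sums of both ligands rest on the Control 2 barcode with Ncr1.

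**Figure D5:**
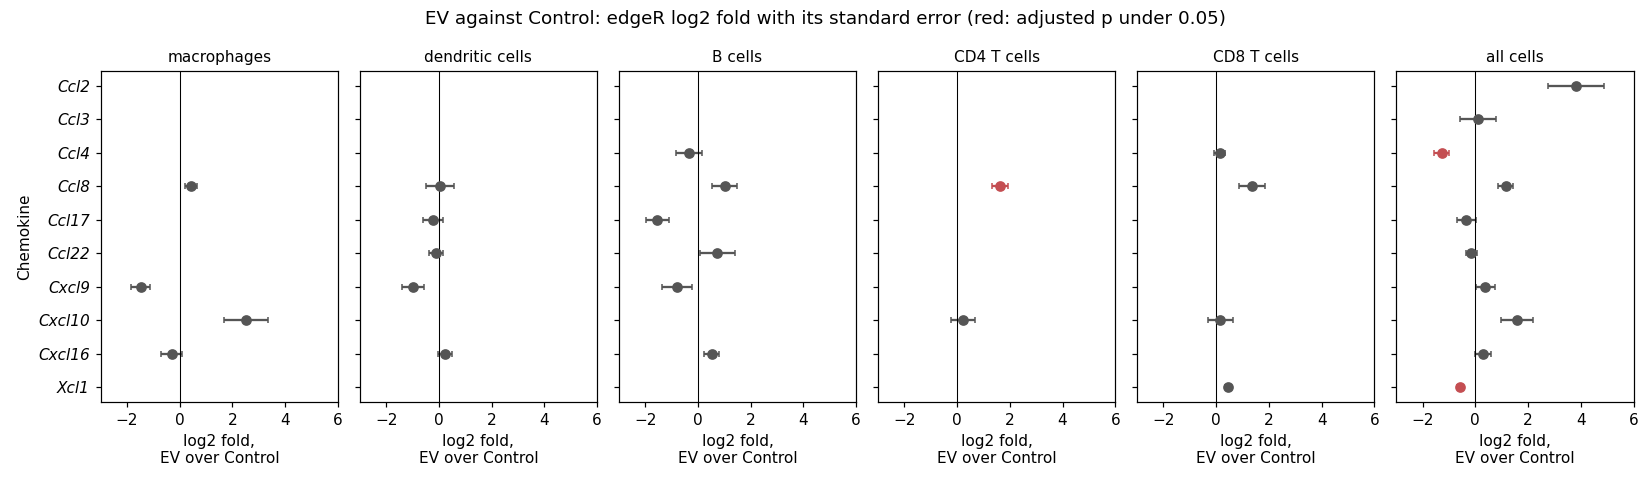
log2 fold of EV over Control (edgeR) with its standard error for each ligand tested in each gate and in all cells, n = 2 libraries a group, red where the adjusted p was under 0.05. Ccl8 in CD4 T cells at 1.62, and Ccl4 at −1.28 and Xcl1 at −0.58 in all cells, are red.

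Summed over all cells of a library, 2 of the 10 ligands were called, both lower, against 8.2% of 16106 genes called and 2.99% called lower. Xcl1 fell by 0.58 on the log2 scale (SE 0.11, adjusted p = 0.0321), from 14.5 and 12.3 to 8.64 and 8.96 CPM, and Ccl4 fell by 1.28 (SE 0.29, adjusted p = 0.0464), from 12.9 and 7.85 to 5.13 and 3.25 CPM. CD8 T cells made up 20.7%, 23.6%, 12.3% and 15.9% of cells and B cells 37.05%, 31.7%, 59.6% and 50.4%, and in such sums fewer cells of a type and less RNA per cell cannot be told apart. The Control 1 cell with 398 Ccl4 UMIs also counted here. Without the top barcodes Ccl4 differed by −0.83 (adjusted p = 0.28) and Xcl1 by −0.40 (adjusted p = 0.151), and neither was called, nor were they without Control 1 (−0.88, adjusted p = 0.0708, and −0.46, adjusted p = 0.177). Ccl8 was at 3.47, 6.49, 12.0 and 9.82 CPM (1.15, SE 0.28, adjusted p = 0.0542), and Ccl2 at 0.0813, 0.144, 2.84 and 0.349 CPM (3.81, SE 1.07, adjusted p = 0.0779).

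Of 22 chemokine receptors listed, 14 were tested in B cells, 14 in CD4 T cells and 10 in CD8 T cells. Cxcr3, the receptor of Cxcl9 and Cxcl10, rose in CD8 T cells from 24.4 and 23.0 to 34.2 and 33.1 CPM (0.52, SE 0.10, adjusted p = 0.0207), a call lost with DESeq2 (adjusted p = 0.0659), after thinning (0.472) and without Control 2 (0.0716). Cxcr4, the receptor of Cxcl12, rose in B cells by 1.07 (SE 0.16, adjusted p = 0.0162) and in CD8 T cells by 0.97 (SE 0.19, adjusted p = 0.0251), the latter not called with DESeq2 (0.34) or the other cell filter (0.0688). Ccr6, the receptor of Ccl20, fell by 1.67 in CD4 T cells (SE 0.28, adjusted p = 0.0184), and its call ended without Control 2 (−1.29, adjusted p = 0.113). None of the 3 receptors tested in macrophages or the 6 in dendritic cells was called. The median log2 difference of the tested receptors was 0.34 in CD8 T cells and −0.33 in CD4 T cells, against 0.000326 and 0.000721 over all genes.

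Other receptors of the ligands were read as levels, here the mean of 4 libraries with the range. Cxcr6 stood at 81.1 CPM (69.8 to 91.0) in CD8 T cells and 9.05 CPM (7.06 to 11.1) in CD4 T cells. Ccr4 was at 7.90 CPM (5.18 to 10.5) in CD4 T cells and 0.461 CPM in CD8 T cells, and Ccr8 at 1.69 CPM (0.796 to 2.96) in CD4 T cells. Among the 5 gates Ccr2 had its highest mean in dendritic cells at 33.7 CPM (8.93 to 59.7). It was higher outside them, at 888, 389, 718 and 1116 CPM in Ly6c2 Lyz2 cells and 292, 368, 635 and 464 CPM in Ncr1-positive cells. Ccr1 stayed at or below 3.52 CPM and Xcr1 at or below 3.04 CPM on average in every gate.

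Of 26 other chemokine ligands listed, 22 were in the matrices, and none of those tested was called in any of the 5 gates. An unadjusted edgeR p under 0.05 was seen for 5 of 6 in macrophages, against 9.04% of genes. It was seen for 3 of 4 in dendritic cells (7.65%) and 4 of 6 in B cells (18.9%). In CD8 T cells it was 1 of 2 (18.2%), and in CD4 T cells 0 of 2. Their median log2 differences were 2.17, 0.70, 1.86, 0.27 and 0.21 in that order, against −0.0129 to 0.000721 over all genes. The directions in macrophages were mixed: Ccl5 was lower in EV over 14 settings (log2 −3.50 to −0.42). There Ccl6, Ccl7, Ccl9 and Ccl12 were higher in every setting that tested them, and Cxcl13 turned sign (−1.79 to 0.91). In all cells 2 of 10 were called, Cxcl2, a neutrophil attractant, with a rise of 5.64 (SE 0.95, adjusted p = 0.0204) from 0.0406 and 0 to 1.53 and 0.555 CPM, and Cxcl13, the B cell follicle ligand, with a rise of 1.60 (SE 0.26, adjusted p = 0.0196). The receptors called in all cells were Cxcr4 (1.30, adjusted p = 0.0169), Cxcr5 (0.73, adjusted p = 0.0111) and Ccr6 (0.69, adjusted p = 0.0224), which were higher, and Ccr10 (−1.66, adjusted p = 0.0157), which was lower and lost its call under the other cell filter (−1.05, adjusted p = 0.0658). Within the B cell gate Cxcr5 differed by 0.03 (SE 0.10, adjusted p = 0.888) and Ccr6 by 0.08 (SE 0.09, adjusted p = 0.64), and B cells were a larger share of cells in both EV libraries, as given above. By CPM, which is not scaled by length, the 3 highest other ligands in macrophages were Ccl5 at 620 CPM (99.4 to 1628), Ccl12 at 451 CPM (200 to 928) and Ccl7 at 166 CPM (14.3 to 531). In dendritic cells Ccl5 stood at 5391 CPM (3061 to 7204), followed by Ccl25 at 37.6 CPM and Cx3cl1 at 22.3 CPM. Ccl5 and Ccl25 also led the lymphocyte gates, with Ccl5 at 266 CPM in CD8 T cells, 42.5 CPM in B cells and 21.5 CPM in CD4 T cells, and Ccl25 at 24.9 to 30.1 CPM. The third there was Ccl12 in B and CD8 T cells at 1.28 and 0.463 CPM, and Cxcl13 in CD4 T cells at 0.671 CPM.

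Over the 20 sums of gate and library, each ligand was matched to the genes with the most similar pattern by Pearson's r of log2(CPM + 10), as a description over points that share libraries and depth. Ccl8 followed Marco, a scavenger receptor (r = 0.997), Fcgr3 (0.991) and Apoc2 (0.989). Ccl22 followed H2-M2 (0.995), Adgrg6 (0.994) and Adam23 (0.993), and Ccl17 followed Adtrp (0.991), Plppr4 (0.988) and Pcdh7 (0.984). Cxcl9 followed Cd300c2 (0.991), the complement gene C3 (0.989) and Tmem86a (0.986), whereas Cxcl10 followed Msr1 (0.984), the chemokine Ccl7 (0.971) and Pilra (0.967). For Cxcl16 the nearest were Basp1 (0.991), Dock1 (0.989) and Rin2 (0.989), and for Ccl2 Clec5a (0.977), Clec4e (0.975) and Lpar1 (0.937). EV 1 held most macrophage-gate UMIs of Ccl2 (86 of 95) and Cxcl10 (126 of 151). The part of that library in the matches of these ligands was not tested. The nearest genes of Xcl1 (Klrc2, Mst1 and B3gnt9, 0.955 to 0.961), Ccl4 (Gm4951, Klrb1c and Cd163, 0.915 to 0.948) and Ccl3 (Tslp, Ms4a8a and Slc7a8, 0.936 to 0.951) were matched over sums that include the single barcode or the few UMIs named above.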

How the data were processed

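Lymph node cells were sequenced with the 10x Genomics 3′ chemistry, and the deposited matrices hold raw UMI counts per gene and barcode that the authors made with Cell Ranger 7.1.0 on mm10, per the labels. Depth was 50749656 to 70418672 UMIs per library. Cells with 200 to 5000 genes, at most 20000 UMIs and under 10% mitochondrial UMIs were kept, doublets were not called, and barcodes in 2 gates stayed in both. UMIs were summed per library and gate. EV was tested against Control with edgeR 4.0.16 (quasi-likelihood, TMM, filterByExpr) in R 4.3.3, without a replicate block, and gates were compared over the 4 libraries with the library as a block. Genes were called at a Benjamini-Hochberg adjusted p under 0.05 over all genes tested. Alternatives included DESeq2 1.42.0. Shares of cells have exact binomial intervals. On simulated counts, 75% of 200 genes changed 4-fold were recovered in macrophages (3497 genes) and 96.5% in CD8 T cells (12284 genes). Every simulated gene had the same spread between libraries, without outlying cells or libraries. Recovery of genes whose UMIs lie in a few cells or in 1 library was not tested. Exact permutation tests used scipy 1.17.1. The ligands and gene lists were chosen with earlier results of these data known. Named genes were the 10 ligands, each listed ligand or receptor called, the ligands' receptors (not all are reported here), the 3 highest other ligands per gate and the 3 genes of closest pattern. Annotation was GENCODE vM21.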

Additional observations from a re-analysis of the deposited data

Results flagged for a closer look

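The EV effect, as a log2 difference, differed between macrophages and other gates for 2 ligands in a direct test of that difference (edgeR, 2 libraries a group). For Ccl4 the effect in B cells exceeded that in macrophages by 3.58 (adjusted p = 0.000424), that in CD4 T cells by 5.14 (adjusted p = 0.02) and that in CD8 T cells by 4.22 (adjusted p = 4.06e-09). For Xcl1 the effect in CD8 T cells exceeded that in macrophages by 13.88 (adjusted p = 2.85e-12), a fitted value and no bound, since the macrophage gate held no Xcl1 UMI in the other 3 libraries. In both cases 1 Control 2 barcode held most macrophage-gate UMIs, 176 of 189 for Ccl4 and all 82 for Xcl1, and it had 11 UMIs of Ncr1.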

How the results depend on the processing

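Macrophage results were limited by 42 to 91 cells per library. Same-numbered libraries deviated together only weakly, with correlations of −0.017 (dendritic cells) to 0.191 (all cells), so the numbers were not taken as pairs. The replicate block was fitted to the same genes as the main test. Genes called were 53 of 3497 in macrophages, 1 of 7421 in dendritic cells and 1182 of 13270 in B cells. They were 788 of 11933 in CD4 T cells, 1018 of 12284 in CD8 T cells and 2672 of 16106 in all cells. Ligands called were 2 of 4 in macrophages, 1 of 6 in B cells, 1 of 4 in CD8 T cells and 4 of 10 in all cells. Without filterByExpr 65, 95, 1392, 773 and 857 genes were called in macrophages, dendritic, B, CD4 and CD8 T cells. The ligands called were 5, 3, 3 and 4 in macrophages, B cells, CD8 T cells and all cells. For this and the settings below the share over all genes tested is not given. Their ligand counts therefore cannot be read as more or fewer than that share. Over all settings, the ligands called at least once in macrophages were Ccl2, Ccl4, Cxcl9, Cxcl10 and Xcl1. For Ccl4 and Xcl1, 1 Control 2 barcode held 176 of 189 and all 82 macrophage-gate UMIs. For Ccl2, EV 1 held 86 of 95. The macrophage counts of ligands called therefore include ligands that rest on 1 barcode or 1 library. DESeq2 called 6 genes in macrophages, 4 in dendritic cells and 165 in CD8 T cells, with 0 ligands in CD4 T cells and 4 in all cells. The other cell filter gave 7, 688 and 120 genes in dendritic, B and CD8 T cells and 1 ligand in CD8 T cells. Thinning gave 1 gene in dendritic cells, 109 in CD8 T cells and 0 ligands in CD4 T cells. Barcodes of 1 gate gave 2 genes in macrophages and 7 in dendritic cells, and the stricter gate 0 in dendritic cells. Without the top barcodes, an alternative chosen after seeing the data, there were 7 genes in dendritic cells and 0 ligands in CD4 T cells and in all cells.

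Leaving out 1 library at a time gave 15 to 86 genes and 2 to 5 ligands in macrophages, 13 to 167 genes in dendritic cells, 97 to 2584 genes and 0 to 2 ligands in B cells, 94 to 2077 genes and 0 to 1 ligand in CD4 T cells, 187 to 2168 genes and 0 to 2 ligands in CD8 T cells, and 725 to 3802 genes and 1 to 5 ligands in all cells. Log2 differences turned sign over those fits: Ccl8 −0.43 to 1.08 and Ccl17 −1.05 to 0.33 in dendritic cells, Ccl4 −1.46 to 0.26, Ccl22 −0.082 to 2.96 and Cxcl9 −1.41 to 0.34 in B cells, Cxcl10 −0.12 to 0.55 in CD4 T cells, and Ccl4 −0.11 to 0.45 and Cxcl10 −0.43 to 1.40 in CD8 T cells. In all cells the ranges were −0.68 to 1.81 for Ccl3, −0.72 to 0.049 for Ccl17, −0.42 to 0.18 for Ccl22, −0.076 to 0.90 for Cxcl9 and −0.11 to 0.83 for Cxcl16. Macrophages against CD8 T cells ranged from −10.81 to 2.83 for Xcl1.

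Other settings also turned signs. Cxcl16 was at 0.74 with barcodes of 1 gate and 0.45 with the stricter gate in macrophages, and at −0.43 with barcodes of 1 gate in B cells. Without the top barcodes Ccl8 was at −0.59 and Ccl22 at 0.34 in dendritic cells, Ccl22 at −0.66 in B cells, Cxcl10 at −0.86 in CD4 T cells, and Ccl3 at −0.15 and Ccl22 at 0.32 in all cells. Thinned, Ccl22 was at 0.13 in dendritic cells. With the other cell filter Ccl17 was at 0.015 and Ccl22 at −0.25 in B cells and Cxcl10 at −0.022 in CD8 T cells. Macrophages against CD8 T cells were at −1.09 for Ccl4 without the top barcodes, and for Xcl1 at −10.23 without them and −10.67 with the stricter gate. Mean shares of positive cells moved when thinned to 47.7% for Ccl8, 18.7% for Cxcl9, 4.37% for Ccl17, 17.5% for Ccl22 and 25.7% for Cxcl16, and with barcodes of 1 gate to 14.7% for Ccl17, 39.6% for Ccl22 and 56.6% for Cxcl16. The causes were not tested.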
